A study of Mus musculus with 8 samples.

Results

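The Xlr3 and Xlr4 genes are small multicopy families on the mouse X chromosome, and 5 of the 23473 probes on the array carried one of their symbols in the platform annotation. There were 2 Xlr3 probes, one listed for Xlr3a (M400011164) and one for Xlr3c (M400009732). The 3 Xlr4 probes were 2 listed for Xlr4b (M400005198, called probe A here, and M400005199, probe B) and 1 for Xlr4c (M400001364). The members were taken by symbol, and the family was chosen by its measured intensities, because the Xlr3 probes stood at the top of the difference between trehalose and water. The Xlr3 values against water are therefore given as a description without a test, while the Xlr4 probes and the comparison of the trehalose times were tested. RNA of the brain was measured on 8 arrays, 1 per sample, from male C57Bl/6J mice of 9 weeks perfused and killed after 6 h without food. There were 3 samples after 1 day of trehalose, a disaccharide of glucose, 3 samples after 10 days of trehalose, and 2 samples of mice given water, at day 0. No water sample was taken at 1 or 10 days, so trehalose and the time of sampling cannot be told apart. The labels name the cerebral cortex, the design text the left hemisphere.

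Xlr stands for X-linked lymphocyte regulated, after the cells in which the founding gene was described, and the proteins are related to SYCP3, a component of the synaptonemal complex that joins chromosomes in meiosis. In mouse brain Xlr3b, Xlr4b and Xlr4c are imprinted, with more RNA from the maternal than from the paternal X. A male mouse has only the maternal X. In brain of mice with a mutated Atrx, a chromatin remodeller, Xlr3b is expressed above its usual level, and the Xlr3b protein has been described as acting on the transport of Camk2a mRNA into dendrites. In bulk tissue, fewer cells of a type and less RNA per cell cannot be told apart.

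The array had no probe listed for Xlr3b or Xlr4a. In the RefSeq gene table of assembly GRCm38.p6 the 13 genes of the cluster run in the order Xlr4a, Xlr3a, Xlr5a, Gm14685, DXBay18, Xlr5b, Spin2d, Xlr3b, Xlr4b, F8a, Xlr4c, Xlr3c and Xlr5c. That table gives Xlr3b as an older name of Xlr3c and Xlr3 as an older name of both Xlr3a and Xlr3b. The probes' own sequences were not used here. A probe listed for one copy may also bind RNA of another, so each is named by its listing and its copy is uncertain.

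The promoters show how alike the copies are before their transcription starts. The 250 bases upstream of the listed start are given from RefSeq, GRCm38.p6, 5′ to 3′ on the gene's strand, for the 3 Xlr3 genes, of which Xlr3c and Xlr3a had the highest and the third highest difference from water, and for Xlr4b as the contrasting family. Capitals mark CCAAT, the core of the box bound by nuclear factor Y, on either strand. The windows are chrX:73097096-73097345 (minus strand) for Xlr3a, chrX:73191929-73192178 (plus) for Xlr3b, chrX:73265391-73265640 (minus) for Xlr3c and chrX:73214083-73214332 (plus) for Xlr4b.
Xlr3a: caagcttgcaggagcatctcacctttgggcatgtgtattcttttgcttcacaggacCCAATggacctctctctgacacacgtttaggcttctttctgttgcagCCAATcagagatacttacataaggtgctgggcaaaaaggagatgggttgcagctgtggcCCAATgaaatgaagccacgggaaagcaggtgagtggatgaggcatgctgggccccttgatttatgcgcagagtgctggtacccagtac
Xlr3b: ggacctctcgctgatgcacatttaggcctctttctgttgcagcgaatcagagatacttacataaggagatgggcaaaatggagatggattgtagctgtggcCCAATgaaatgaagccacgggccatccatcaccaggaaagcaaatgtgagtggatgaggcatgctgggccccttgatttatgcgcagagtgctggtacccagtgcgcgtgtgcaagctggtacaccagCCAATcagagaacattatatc
Xlr3c: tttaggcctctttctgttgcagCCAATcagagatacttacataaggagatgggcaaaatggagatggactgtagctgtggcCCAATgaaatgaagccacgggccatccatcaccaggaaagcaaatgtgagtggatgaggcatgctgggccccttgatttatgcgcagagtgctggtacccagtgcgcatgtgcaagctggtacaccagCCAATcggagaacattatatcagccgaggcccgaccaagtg
Xlr4b: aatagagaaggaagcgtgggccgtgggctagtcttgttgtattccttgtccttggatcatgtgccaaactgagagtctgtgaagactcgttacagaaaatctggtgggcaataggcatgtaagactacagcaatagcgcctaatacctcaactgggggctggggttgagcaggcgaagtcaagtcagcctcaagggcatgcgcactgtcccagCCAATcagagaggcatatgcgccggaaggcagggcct

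By local alignment the Xlr3b and Xlr3c windows were 98.3% identical over 230 aligned columns. Xlr3a was 86.4% identical to Xlr3c over 184 columns and 85.8% to Xlr3b over 204. A run of 58 bases was the same in all 3 Xlr3 windows, beginning gtgagtggatga. The Xlr4b and Xlr4c windows were 99.1% identical over 227 columns, while Xlr3c against Xlr4b reached 64.1% over 103. CCAAT on either strand occurred 3 times in the Xlr3a and Xlr3c windows, 2 times in Xlr3b and 1 time in Xlr4b, and 33.8% of 32851 RefSeq windows of the same length held it at least once. At least 3 occurrences were found in 2.79% of those windows. CACGTG, which reads the same on both strands, and GGGCGG on either strand were in none of the 6 Xlr3 and Xlr4 windows, against 6.02% and 32.7% of all. No 2 of these motifs overlapped. The absence says only that these letters are not in these windows.

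All 5 member probes passed the filter, which set a limit of 2 SD over each array's blank mean, to be exceeded on 2 arrays or more, and left 21583 probes. Both Xlr3 probes, Xlr4b probe A and Xlr4c were above that limit on all 8 arrays, and Xlr4b probe B on 7, missing it on water replicate 2. The Xlr3c spot read 223.6, 199.9 and 192.5 intensity units after 1 day of trehalose, 138.3, 158.5 and 245.5 after 10 days, and 81.9 and 57.3 in the water samples. The Xlr3a spot read 151.8, 131.0 and 111.7 after 1 day, 96.1, 92.8 and 164.0 after 10 days, and 69.4 and 44.0 with water. Every trehalose array was above both water arrays for both Xlr3 probes, and replicate 3 of the 10-day group had the highest reading of each. The blank spots averaged between 27.1 and 30.3 units per array.

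The Xlr3 spots were between 3.11 and 9.06 times the blank mean on the trehalose arrays and between 1.47 and 2.98 times on the water arrays. Xlr4c was between 1.71 and 2.35 times the blank mean with trehalose and 1.65 and 1.81 times with water. Xlr4b probe B lay closest to the blank spots, at 1.16 to 1.34 times their mean with trehalose and 1.10 and 1.17 times with water. These multiples describe each spot against blank spots and do not set the level of one gene against another.

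On the log2 scale after normexp correction with an offset of 50 and quantile normalization, Xlr3c was 7.89, 7.74 and 7.83 after 1 day of trehalose, 7.37, 7.58 and 8.05 after 10 days, and 6.72 and 6.40 with water. Xlr3c averaged 7.74 ± 0.24 with trehalose at either time (SD, n = 6) and 6.56 ± 0.23 with water (SD, n = 2), a log2 difference of 1.19 ± 0.16 (SE), or 2.28-fold. Trehalose at either time means the average of the 1-day and 10-day group means. This was the highest difference of all 21583 probes. At 1 day the Xlr3c difference was 1.26 (2.40-fold) and at 10 days 1.11 (2.16-fold). These folds understate the change of a dim probe because of the offset.

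Xlr3a was 7.41, 7.22 and 7.15 after 1 day of trehalose, 6.94, 6.94 and 7.53 after 10 days, and 6.54 and 6.13 with water. It averaged 7.20 ± 0.24 with trehalose (SD, n = 6) and 6.33 ± 0.29 with water (SD, n = 2), a log2 difference of 0.86 ± 0.18 (SE), or 1.82-fold. The gap between the water arrays was the widest within a group apart from that among the 10-day arrays. At 1 day the Xlr3a difference was 0.92 (1.90-fold) and at 10 days 0.80 (1.74-fold). Between the Xlr3 probes in the order of all differences stood Sult4a1, a brain sulfotransferase, at 1.08. Its groups overlapped, with 9.68 to 9.94 with trehalose and 7.74 and 9.69 with water, so 1 water array carried the difference, which was 2.06 without water replicate 1. After the Xlr3 probes came Hba-a2, an alpha globin, at 0.77 and Hbb-bs, a beta globin, at 0.611. Next was Avp, one of the hypothalamus markers read below, at 0.606.

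With the mean of the blank spots subtracted and no offset, Xlr3c averaged 164 units with trehalose at either time and 40.8 with water, a ratio of 4.02. Xlr3a averaged 95.5 units with trehalose and 28.0 with water, a ratio of 3.41. The authors' deposited values, which are close to blank-subtracted spots scaled to a common median, gave ratios of 3.92 for Xlr3c (65.5 with trehalose and 16.7 with water) and 3.32 for Xlr3a (38.1 and 11.5). With the scanner's local background subtracted instead, the log2 difference was 0.89 for Xlr3c and 0.29 for Xlr3a. In that setting the Xlr3a groups overlapped, with 6.31 in 10-day replicate 2 against 6.36 in water replicate 1. The local background followed the spots themselves, with correlations of 0.936 to 0.983 across the spots of an array.

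The 3 Xlr4 probes moved much less. Xlr4c read 6.41, 6.40 and 6.47 on the log2 scale after 1 day of trehalose, 6.19, 6.44 and 6.46 after 10 days, and 6.21 and 6.24 with water. Replicate 1 of the 10-day group lay below both water arrays, and the other 5 trehalose arrays lay above them. The log2 difference for trehalose at either time was 0.17 ± 0.07 (SE, 95% interval -4.9e-05 to 0.33, limma adjusted p = 1). Xlr4c did not pass the test. Without replicate 1 of the 10-day group the difference was 0.21, the groups did not overlap, and the adjusted p was still 1.

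Xlr4b probe B read 5.93, 5.88 and 5.94 after 1 day, 5.86, 5.90 and 5.96 after 10 days, and 5.85 and 5.85 with water. Its trehalose arrays were all above the water arrays, the lowest by little, at 5.8573 in 10-day replicate 1 against 5.8542 in water replicate 2. The log2 difference was 0.060 ± 0.037 (SE, 95% interval -0.027 to 0.146, limma adjusted p = 1). Xlr4b probe A read 6.28, 6.27 and 6.31 after 1 day, 6.24, 6.28 and 6.26 after 10 days, and 6.22 and 6.24 with water. The groups overlapped, and the log2 difference was 0.037 ± 0.030 (SE, 95% interval -0.033 to 0.108, limma adjusted p = 1). Neither Xlr4b probe passed the test. With the blank mean subtracted the trehalose to water ratios were 1.10 for Xlr4b probe A, 1.62 for probe B and 1.46 for Xlr4c. The ratio of probe B came from the lowest levels of these, at 6.23 units with trehalose and 3.84 with water.

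Against water at either time, all 5 members were higher on average and 3 of 5, both Xlr3 probes and Xlr4b probe B, had no overlap between the groups. Among all tested probes 2.75% were higher without overlap, and the members' count, part of which the choice of the family fixed, is not read against it. The count of 3 was 2 with median scaling and with the authors' values, where Xlr4b probe B overlapped, and 1, Xlr3c, with the local background subtracted. It was 5 without 10-day replicate 1, where 3.95% of all probes were higher without overlap. Without water replicate 2 it was 4, with Xlr4b probe A added, and with 1 array left out the share of all probes reached 14%. That share was 2.36% with median scaling, 1.29% with the authors' values and 3.44% with the local background subtracted. These counts are not read against the shares either. At 1 day all 5 members were higher without overlap, against 8.97% of all probes, and at 10 days 3 of 5, against 6.46%. The choice of the Xlr3 probes fixed part of both counts, so neither is read against its share. At 1 day the count was 4 with median scaling and with the local background subtracted, where Xlr4b probe B overlapped. It was also 4 with the authors' values, where Xlr4b probe A overlapped. At 10 days the count was 5 without 10-day replicate 1, and 4 without water replicate 2. It was 2 with median scaling, the authors' values or the local background subtracted. In these settings the shares of all probes were not counted for 1 day and for 10 days. The 2 comparisons share the water arrays. By limma with Benjamini-Hochberg adjustment 0% of the 21583 probes passed in each of the 4 comparisons, while an unadjusted p under 0.05 was reached by 787 probes (3.65%) at 1 day against water, 432 (2%) at 10 days, 568 (2.63%) at either time and 756 (3.5%) between the times. A log2 difference of at least 0.58 was reached by 6 probes, 0.0278% of those tested.

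The 10-day and 1-day groups were then compared, a contrast that had no part in picking the family. Xlr3c averaged 7.67 ± 0.34 at 10 days and 7.82 ± 0.08 at 1 day (SD, n = 3 each), a log2 difference of -0.16 ± 0.16 (SE, 95% interval -0.54 to 0.22, limma adjusted p = 1). Xlr3a averaged 7.14 ± 0.34 at 10 days and 7.26 ± 0.14 at 1 day, a log2 difference of -0.12 ± 0.18 (SE, 95% interval -0.54 to 0.29, limma adjusted p = 1). The 10-day arrays were more spread, with 1 array above and 2 below all the 1-day arrays for each Xlr3 probe. Xlr4c differed by -0.06, Xlr4b probe A by -0.03 and probe B by -0.01, each with a limma adjusted p of 1. None of the 5 probes was free of overlap between the times, against 8.4% of all probes in either direction. One array decided this for the Xlr3 probes, and the share of all probes without that array was not counted. Without 10-day replicate 3 both were lower at 10 days without overlap, with log2 differences of -0.35 for Xlr3c and -0.32 for Xlr3a, each with a limma adjusted p of 1. Without 10-day replicate 1 the differences were -0.01 for Xlr3c and -0.02 for Xlr3a, and without 10-day replicate 2 that of Xlr3a was -0.02. Leaving out 1-day replicate 1 gave -0.05 for Xlr3a. Xlr4b probe A was lower at 10 days without overlap in 2 settings. It was at -0.12 with the local background subtracted and at -0.04 without 10-day replicate 2. The shares of all probes were not counted in these settings. The intervals leave room for a change of either sign.

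The Xlr3 probes were then compared with each other. Across the 6 trehalose arrays, Xlr3a and Xlr3c had a Pearson r of 0.923 (exact permutation p = 0.00972, adjusted over 10 pairs of members 0.074) and a Spearman rho of 0.943 (exact permutation p = 0.0167, adjusted 0.111). Without the 2 arrays farthest from the Xlr3a median r was 0.897. With the local background subtracted r was -0.255 (exact permutation p = 0.629, adjusted 0.795), so the likeness did not hold in that setting. The log2 gap of Xlr3c over Xlr3a was 0.53 ± 0.10 at 10 days and 0.56 ± 0.11 at 1 day (SD, n = 3 each). This difference of -0.03 had an exact permutation p of 0.6 (two-sided), where the smallest possible is 0.1. On the water arrays the gap was 0.18 and 0.27, below all 6 trehalose arrays, at 0.44 to 0.68. As a ratio of blank-subtracted units, Xlr3c over Xlr3a was 1.59 to 2.04 on the trehalose arrays and 1.30 and 1.95 on the water arrays, and the groups overlapped.

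The other pairs of members differed widely in likeness, and no pair of the 10 passed the adjusted threshold of 0.05. Over the 6 trehalose arrays Xlr3c and Xlr4b probe B had r = 0.885 (exact permutation p = 0.0208, adjusted 0.074) and rho = 0.886 (exact permutation p = 0.0333, adjusted 0.111), and r = 0.602 without the 2 farthest arrays. That r was 0.368 with median scaling and 0.164 with the local background subtracted. Xlr3a had an r of 0.721 with Xlr4b probe B (exact permutation p = 0.121, adjusted 0.202), and 0.274 without the farthest 2 arrays. With Xlr4c the r of Xlr3a was 0.495 (exact permutation p = 0.389, adjusted 0.432), and -0.544 without them, and with Xlr4b probe A it was 0.0901 (exact permutation p = 0.893, adjusted 0.893). Xlr4b probe B and Xlr4c had r = 0.784 (exact permutation p = 0.0222, adjusted 0.074) and rho = 0.886 (exact permutation p = 0.0333, adjusted 0.111), and 0.587 without them. Xlr3c and Xlr4c had r = 0.775 (exact permutation p = 0.0597, adjusted 0.149) and rho = 0.6 (exact permutation p = 0.242, adjusted 0.403). Without the farthest 2 arrays r was -0.121. Leaving them out narrows the range and leaves few arrays, so for no pair can it show what a relation rests on. Xlr3c and Xlr4b probe A had r = 0.434 (exact permutation p = 0.378, adjusted 0.432), and 0.256 without the farthest 2. Xlr4b probe A and Xlr4c had r = 0.781 (exact permutation p = 0.11, adjusted 0.202), and -0.478 without them. The Xlr4b probes, listed for the same gene, had r = 0.549 (exact permutation p = 0.26, adjusted 0.371) and rho = 0.371 (exact permutation p = 0.497, adjusted 0.621), and without the farthest 2 arrays r was -0.537. Values on 1 array share its labelling, scan and normalization.

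Among 488 probes whose log2 intensity ranged over at least 0.58, the pattern most like Xlr3a over the 8 arrays was that of Xlr3c, with r = 0.977. Cited1, a transcriptional co-activator, followed at 0.785, then Tmem167 at 0.75, Sult4a1 at 0.746 and Egr1, an immediate early transcription factor, at 0.73. For Xlr3c, after Xlr3a, they were Cited1 at 0.784, Egr1 at 0.761, the neuroendocrine Resp18 at 0.743 and Slc17a6, a vesicular glutamate transporter, at 0.736. Within the 6 trehalose arrays alone, r with Cited1 was -0.337 for Xlr3a and -0.639 for Xlr3c. Each r over the 8 arrays, that of Xlr3a and Xlr3c included, holds the step between water and trehalose by which the family was picked, and so supports no likeness of its own.

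Related genes were near or below the blank spots. Of 8 further probes, for the Xlr superfamily and for Spin2d, a spindlin gene that lies within the cluster, Slxl1, Spin2d, Xlr, Xlr5a and Xlr5b were above the limit on no array. The 3 tested were Sycp3, Xlr5c and Sly, a Y-linked relative, with log2 differences of 0.08, 0.03 and 0.004 for trehalose at either time against water, none of which passed the test. Of the genes beside the cluster on the X, the nearest tested on one side were Pnma3 at 0.04 ± 0.05 and Pnma5 at -0.02 ± 0.06, both members of the paraneoplastic Ma antigen family. On the other side were the zinc finger genes Zfp275 at 0.06 ± 0.06 and Zfp92 at 0.03 ± 0.03 (SE). The groups overlapped for all 4 genes. F8a, which lies within the cluster between Xlr4b and Xlr4c, was at 0.006 ± 0.085 (SE). Its groups overlapped, with 8.17 to 8.49 with trehalose and 8.38 and 8.41 with water. Of the 31 tested probes of the wider neighbourhood, 18 were higher and 13 lower, with a median of 0.01 against -0.002 for all probes. None of the 31 passed the test, against 0% of all 21583 tested probes. Avpr2, a vasopressin receptor, at -0.06 ± 0.03 and Trex2, an exonuclease, at 0.06 ± 0.03 (SE) had the lowest p there. Of 705 tested probes of the X, 50.2% were higher with trehalose, against 48.6% of all tested probes.

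None of the lists that touch the described roles of Xlr3 held a called probe by limma for trehalose at either time against water. In that comparison 0% of all 21583 tested probes were called, so the absence says nothing particular to these lists. Of all tested probes 48.6% were higher. Of 28 tested probes for ATRX, DNA methylation and heterochromatin, 17 were higher and 11 lower, with a median of 0.01. Atrx itself was at 0.09 and 0.03 on its 2 probes, Daxx, its histone chaperone partner, at -0.01, and the DNA methyltransferase Dnmt3a at 0.01. Dnmt1, the maintenance methyltransferase, was at -0.14 ± 0.05 and Mbd2, a reader of methylated DNA, at -0.11 ± 0.07 (SE). Of 27 tested probes for dendritic RNA transport, 11 were higher and 16 lower, with a median of -0.02, which became 0.03 with the local background subtracted. Camk2a, whose mRNA Xlr3b is described to act on, was at -0.14 and -0.10 on its 2 probes, and Dync1h1, the dynein heavy chain, at -0.03. Elavl4, a neuronal RNA-binding protein, was at -0.21 ± 0.07 on one probe and at -0.003 on its other, and Kif5c, a kinesin, at -0.10 ± 0.06 (SE). The adjusted p was 1 for each of these.

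Of 39 tested probes of imprinted genes, 27 were higher and 12 lower, with a median of 0.02, and of -0.0004 with the local background subtracted. Asb4, a ubiquitin ligase subunit, was at 0.14 ± 0.03 and the neuronal Nnat at 0.19 ± 0.08 on one probe and 0.14 ± 0.10 on its other (SE). Of 19 tested probes for germline genes that DNA methylation silences in other tissues, 9 were higher and 10 lower, with a median of -0.02. Asz1, a germ cell protein, was at 0.13 ± 0.05 and the peptidase Dpep3 at -0.05. Of 17 tested probes of other multicopy families of the X, 6 were higher and 11 lower, with a median of -0.02. Ssxb10 was at -0.14 ± 0.06 and Ssxb1 at -0.07 ± 0.04 (SE). No probe of these 3 lists passed the test, against 0% of all 21583 tested probes, of which 48.6% were higher.

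Marker genes of other cells and regions were read beside the Xlr3 difference. For trehalose at either time against water, 48.6% of all tested probes were higher. Of 13 tested lymphocyte marker probes of 16 on the array, 7 were higher and 6 lower, and Cd3g, Rag1 and Rag2 were above the limit on no array. Their summed intensity was 965 to 1008 with trehalose and 973 to 993 with water. Every sum in this paragraph includes the normexp offset of each probe. For the dim lymphocyte and male germ cell probes the offset makes up much of the sum. Near-equal sums of these probes therefore do not show equal amounts of these cells. Of 11 tested male germ cell marker probes of 16, 6 were higher and 5 lower, Prm1, Sycp1 and Tnp1 were above the limit on no array, and the sums were 1153 to 1221 with trehalose and 1192 to 1217 with water. The 12 probes for cortical excitatory neurons were all above the limit on all arrays; 10 of 12 were lower (8 with the local background subtracted), with sums of 5553 to 5985 with trehalose and 6188 to 6229 with water. Of 16 tested thalamus probes of 17, 14 were higher, with a median of 0.17, and the sums were 4609 to 6082 with trehalose and 4089 to 4662 with water. With the local background subtracted 10 were higher and 6 lower, with a median of 0.03. Tcf7l2 was above the limit on no array. All 13 striatum probes were lower, with a median of -0.16 and sums of 4762 to 12420 with trehalose and 8940 to 12600 with water. With the local background subtracted 9 were lower and 4 higher. At 1 day the striatum median was -0.28 and at 10 days -0.05, with 9 lower and 4 higher at 10 days, and all 13 were higher at 10 days than at 1 day. Of 10 hypothalamus probes 5 were higher, with a median of 0.05, which was -0.05 with the local background subtracted, and sums of 2546 to 3998 with trehalose and 2582 to 2718 with water. At 1 day 9 of 10 hypothalamus probes were higher, with a median of 0.10, and at 10 days 5 of 10, with a median of 0.01. Between the times 9 of 10 were lower at 10 days. None of these marker probes passed the test, against 0% of all 21583 tested probes. The part of the regional markers in the Xlr3 difference was not tested.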

How the data were processed

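Trizol-extracted total RNA was converted to amino allyl RNA and coupled to Cy5, per the labels' protocols, with 1 sample per 1-colour array. The deposited scanner files give, per the file headers, the intensity of each spot as the median of its pixels, joined from 3 gains, with a local background and flags. The deposited table of the authors holds 1 processed intensity per probe, and each of its columns was linear in the scanner's spot medians, near the blank-subtracted spot rescaled to a median of 25. No batch could be tested, since software, slide and date of scanning are not named by the labels or headers.

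Each array held 27456 spots, 23474 of them with probes and 2736 blank. In R 4.3.3 with limma 3.58.1, the authors' spot medians were turned into log2 intensity: normexp with an offset of 50 on all spots, 10 flagged probe spots set to missing, quantile normalization, and spots of a probe averaged. Probes above the blank mean plus 2 SD on at least 2 arrays were tested, 21583 of 23473, and between 86.3% and 92.0% of probes were above the limit per array. All 8 arrays entered 1 fit with 3 groups and 5 residual degrees of freedom, with Benjamini-Hochberg adjustment over all probes and a threshold of 0.05. The median 95% interval reached 0.13 to each side at 1 day and at 10 days against water. It reached 0.117 for trehalose at either time against water and between the times, and the number of arrays limits the precision. Nothing in the labels ties samples to cages. The limma p-values set each difference against the spread between these samples within groups. The exact permutation p-values set a value against those from rearranged trehalose arrays.

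The members and gene lists were chosen with earlier results of these data known. Named genes were all Xlr3, Xlr4 and other Xlr superfamily probes (with Spin2d), the 5 patterns most like each Xlr3 probe, the nearest 2 tested genes on each side of the cluster, the 2 lowest p of each gene list, and Atrx, Daxx, Dnmt1, Dnmt3a, Camk2a and Dync1h1. F8a, within the cluster, was added after its value was seen. Promoters came from RefSeq (GRCm38.p6) and were aligned with Biopython 1.88. Other backgrounds, offsets, normalizations, filters, variance models and array weights were tried. So were the replicate block, the number in each sample's description as a covariate, the authors' values and each array left out.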

Additional observations from a re-analysis of the deposited data

Results flagged for a closer look

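Xlr4c on the first array of the 10-day trehalose group, at 6.19 on the log2 scale, stood apart from the other 5 trehalose arrays, which lay between 6.40 and 6.47. Its gap to the nearest was 0.749 of the range of the 6 arrays, above Dixon's 95% critical value, and it lay below the water arrays at 6.21 and 6.24. Chance flags about 1 in 20 such groups, and 5 probes were examined.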

How the results depend on the processing

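The log2 differences of the Xlr3 probes against water kept their direction under each alternative and moved with the background and offset. With the blank mean subtracted they were 1.99 (1 day), 1.77 (10 days) and 1.88 (either time) for Xlr3a and 2.13, 1.91 and 2.02 for Xlr3c. With the authors' values they were 1.96, 1.82 and 1.89 for Xlr3a and 2.09, 1.96 and 2.02 for Xlr3c. With an offset of 16 they were 1.37, 1.20 and 1.28 for Xlr3a and 1.69, 1.49 and 1.59 for Xlr3c. With the local background subtracted they were 0.37, 0.21 and 0.29 for Xlr3a and 0.98, 0.80 and 0.89 for Xlr3c. Leaving out 1 array gave 0.72 to 1.13 (1 day), 0.60 to 1.01 (10 days) and 0.66 to 1.07 (either time) for Xlr3a, and 1.10 to 1.42, 0.92 to 1.27 and 1.03 to 1.35 for Xlr3c, and between the times -0.32 to -0.02 for Xlr3a and -0.35 to -0.01 for Xlr3c. The number of probes called by limma, 0 as reported, was 1 (Il1rl2, at 10 days against water and against 1 day) with the blank mean subtracted and with trended, robust variances, and 0 to 2 with 1 array left out, the 2 being Ifitm3 and Sult4a1 without water replicate 1; these were named after their values were seen. The share of probes higher without overlap was 1.29% with the authors' values and 3.31% to 14% with 1 array left out, against 2.75%. Between the times, the Xlr4b probe B difference of -0.01 was 0.0044 with median scaling, -0.036 to 0.013 with 1 array left out (0.013 without 10-day replicate 1 and 0.0018 without 1-day replicate 3), and that of Xlr4c was -0.112 to 0.026 (0.026 without 10-day replicate 1). The r of Xlr3a and Xlr3c was -0.255 with the local background subtracted, and that of Xlr3a and Xlr4b probe A, 0.09 as reported, was -0.293 with median scaling. The cause was not tested. Replicate numbers were shared between groups, and the deviations of same-numbered arrays correlated at -0.0247 to 0.263 over 7 pairs, 6 of them over 0.1, with 7 of 8 arrays closest to their own number, a hint from the data and not the design. The 2 water arrays deviate from their mean by opposite amounts, at 0.263 and -0.263 with 1-day replicate 1. Pairs with them are therefore not independent. With the replicate number as a block the differences at either time were 0.79 for Xlr3a and 1.09 for Xlr3c, and 0 probes were called. Xlr4b probe B lies near the blank spots, where the offset compresses a change, and 2 water arrays limit each comparison with water.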
